A study of Mus musculus with 8 samples.

Results

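The very wide open regions of mouse macrophages were taken from peak lists of ATAC-seq, an assay in which a transposase cuts accessible chromatin and leaves sequencing adapters there. Peaks on the 21 main chromosomes (1 to 19, X and Y) were merged across the 8 lists of the series where they shared at least 1 base, and merged regions of 2000 bases or more were kept. This gave 397 regions out of 87260, or 0.455%, with a median width of 2332 bases against 468 bases over all regions. They were chosen by their measured width alone, pooled over all lists without regard to group, so the width is given as a description. Cover is counted from the same peaks, so a region can pass the cut through the group where its peaks are wider. Comparisons of cover between groups carry this limit.

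The macrophages were grown from bone marrow for 7 days in 25% medium conditioned by L929 cells, fibroblasts whose secreted M-CSF drives macrophage growth. The 4 groups, with 2 libraries each, were Nfat5 KO cells after 2 h with 0.3 ng/ml lipopolysaccharide (LPS, from the outer membrane of E. coli), wild-type (WT) cells after the same LPS, untreated Nfat5 KO cells and untreated WT cells. Nfat5 encodes a transcription factor known for the response to high salt. The labels call the mice NFAT5-deficient and do not say how the gene was disrupted, in which cells, or the strain, age or sex, nor whether libraries with the same code came from 1 animal, so p-values measure only the spread between these libraries.

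Open chromatin in a cell is mostly a set of short gaps between nucleosomes at promoters and enhancers. A broad open stretch can be a promoter with many start sites, often rich in CpG dinucleotides, or a cluster of enhancers. A broad peak can also be called where many copies of a repeated sequence are represented once in the genome assembly, because reads from all copies then collect in 1 place. Tandem arrays of ribosomal RNA genes, satellite sequence beside centromeres, and duplicated parts of X and Y are known for this.

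The RefSeq promoter windows (GRCm38.p6, from 250 bases before to 50 after a gene's start) showed which of the wide regions hold a start site. The 4 windows below are shown because they lie in the 2 widest regions with a complete window, at Mndal and Tnfsf10, and in the 2 wide regions with the smallest p for lower cover with LPS, at Dock1 and Rel. They are written 5′ to 3′ on the gene's strand, and capitals mark 4 motifs on either strand, namely GGGCGG (the GC box), CCAAT (the box of that name), TATAAA (the TATA box) and GAGGAA (a core that the macrophage factor PU.1 is known to bind).
Mndal (chr1:173879909-173880208, - strand): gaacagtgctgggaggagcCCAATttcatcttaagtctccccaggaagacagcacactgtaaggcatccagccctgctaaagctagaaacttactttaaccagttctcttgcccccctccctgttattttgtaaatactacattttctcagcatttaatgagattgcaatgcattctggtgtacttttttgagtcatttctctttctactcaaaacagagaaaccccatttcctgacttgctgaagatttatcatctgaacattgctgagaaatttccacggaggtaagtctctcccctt
Tnfsf10 (chr3:27316827-27317126, + strand): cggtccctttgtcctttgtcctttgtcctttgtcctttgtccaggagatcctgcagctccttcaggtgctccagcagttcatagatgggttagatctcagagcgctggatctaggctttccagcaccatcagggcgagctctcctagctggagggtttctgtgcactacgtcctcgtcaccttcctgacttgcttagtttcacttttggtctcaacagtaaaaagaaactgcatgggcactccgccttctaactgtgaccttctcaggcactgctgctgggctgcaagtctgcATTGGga
Dock1 (chr7:134670437-134670736, + strand): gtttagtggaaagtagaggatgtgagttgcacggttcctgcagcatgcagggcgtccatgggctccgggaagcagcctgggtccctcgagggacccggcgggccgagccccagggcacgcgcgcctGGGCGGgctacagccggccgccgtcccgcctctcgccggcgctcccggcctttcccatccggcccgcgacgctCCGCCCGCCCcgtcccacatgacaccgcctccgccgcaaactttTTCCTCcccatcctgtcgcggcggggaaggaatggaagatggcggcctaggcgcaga
Rel (chr11:23770920-23771219, - strand): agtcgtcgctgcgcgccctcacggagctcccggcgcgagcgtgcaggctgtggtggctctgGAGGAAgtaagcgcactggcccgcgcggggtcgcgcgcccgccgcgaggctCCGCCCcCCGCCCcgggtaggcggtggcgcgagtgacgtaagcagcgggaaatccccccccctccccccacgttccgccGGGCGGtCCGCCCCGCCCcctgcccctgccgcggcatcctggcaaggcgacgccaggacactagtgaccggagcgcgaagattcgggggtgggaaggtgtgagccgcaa

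The Dock1 and Rel windows were rich in CpG, with 34 and 42 CpG dinucleotides in 300 bases and a GC content of 70.7% and 75%. The Mndal and Tnfsf10 windows held 1 and 6 CpG dinucleotides, at 42% and 52.3% GC. Over the 154 complete windows inside wide regions, from 136 genes, the median was 24 CpG and 64.7% GC, against 24 CpG and 63% GC in the 4891 windows inside regions of 1000 to 1999 bases, and 7 CpG and 52.7% GC over all 32851 windows. GGGCGG was in 66.9% of the windows in wide regions, against 69.7% in the 1000 to 1999 base class and 35.7% of all windows. CCAAT was in 37% against 37.2% and 37.4%, TATAAA in 5.8% against 5.3% and 13.6%, and GAGGAA in 21.4% against 26.9% and 28.3%. Hits of these motifs may share bases, and the shares describe letters, not binding.

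The labelled cell type was checked at its marker genes. A region called in all 8 lists lay within 1 kb of a gene end for 22 of 25 macrophage identity genes (Csf1r, Adgre1 and Cd68 among them), against 3 of 15 T cell, 2 of 11 B cell, 3 of 14 neutrophil, 2 of 10 erythroid and 2 of 13 fibroblast genes. Either end of a gene counted, and no share over all protein-coding genes is set beside these counts. Over the Nfat5 gene itself 2 regions were called, none wide and none in all WT but no KO lists, so the lists gave no check of the knockout. The lists held 54911 and 54027 peaks in KO LPS, 57691 and 55506 in WT LPS, 56346 and 59811 in untreated KO libraries, and 60117 and 59218 in untreated WT libraries, and they carry no counts, so the sequencing depth is unknown. Libraries of replicate 1 and replicate 2 stood apart on X and Y in every group, as described below.

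Wide regions were of several kinds, and the kinds followed the width. There were 242 regions of 2000 to 2499 bases, 58 of 2500 to 2999, 57 of 3000 to 4999, 31 of 5000 to 10000 and 9 over 10 kb. Of the 397, 267 held a single peak of 2000 bases or more in at least 1 list, and 56 held one in all 8 lists. The other 130 reached the width only by joining shorter peaks of different lists or of 1 list. Peaks of 2000 bases or more numbered 134 and 125 in KO LPS, 126 and 134 in WT LPS, 142 and 148 in untreated KO libraries, and 134 and 139 in untreated WT libraries. Untreated libraries had 134 or more, and LPS libraries 134 or fewer.

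Gene ends were common among the narrower of the wide regions and nearly absent among the widest. In total 128 of 397 lay within 1 kb of an end of a protein-coding gene, or 32.2% (95% Wilson interval 27.8 to 37.0, counting error only), against 16% of all regions. The share was 7.58% under 500 bases and climbed to 53.8% at 1500 to 1999 bases. It was 47.9% at 2000 to 2499 bases, 17.2% at 2500 to 2999, 1.75% at 3000 to 4999, 3.23% at 5000 to 10000, and 0 of 9 over 10 kb. A promoter window overlapped 111 of the 382 wide regions outside chromosome 18, whose windows were not used here, or 29.1%, against 12% of all regions. By width the share was 51.4% at 1500 to 1999 bases, 43.1%, 17.9% and 1.79% in the next classes, and none of 29 regions of 5000 to 10000 bases or of the 9 regions over 10 kb. No protein-coding gene lay within 100 kb of 62 wide regions, or 15.6%, against 10.1% of all regions.

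**Figure D1:**
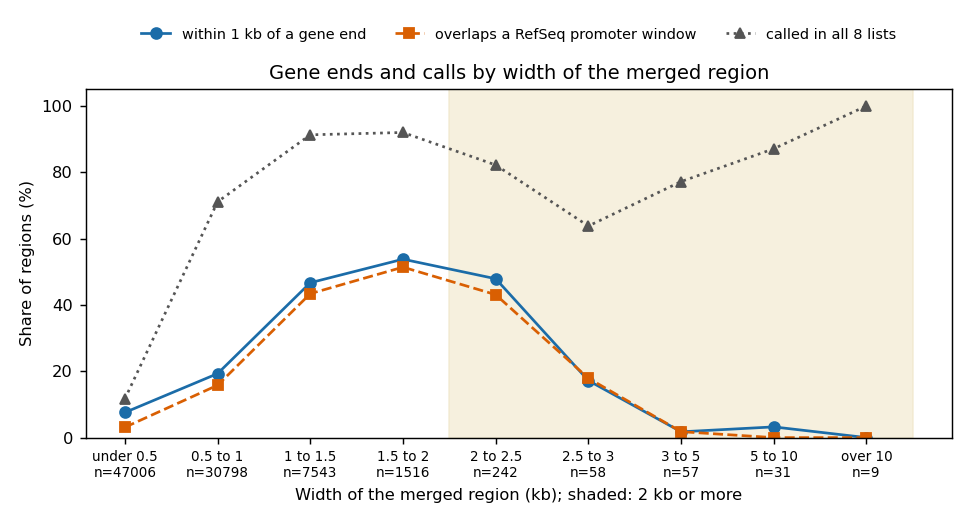
Share of merged regions (%) within 1 kb of a gene end, overlapping a RefSeq promoter window, and called in all 8 lists, against the width class of the region in kb (n regions under each class). The gene-end share peaks at 53.8% in regions of 1.5 to 2 kb and is 0 over 10 kb, while the share called in all 8 lists reaches 100% there.

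Most wide regions were called in every library. All 8 lists called 316 of 397, or 79.6% (95% Wilson interval 75.4 to 83.3, counting error only), against 41.3% of all regions, and 198 were covered over at least 50% of their width in all 8. Width was pooled over the lists, so a region called in more lists could grow wider, which limits the comparison with all regions. The share in all 8 lists was 95.3% of the 128 regions near a gene end and 72.1% of the 269 away from gene ends. By width it was 82.2% at 2000 to 2499 bases, 63.8% at 2500 to 2999, 77.2% at 3000 to 4999, 87.1% at 5000 to 10000 and 100% over 10 kb. Below the cut it was 11.7% under 500 bases, 71.1% at 500 to 999, 91.3% at 1000 to 1499 and 92% at 1500 to 1999. The wide regions were thus called in all 8 lists less often than regions of 1000 to 1999 bases. Of the 81 wide regions missing from a list, 52 were called by more LPS than untreated libraries and 18 by more untreated libraries. Among all 51251 regions missing from a list the balance ran the other way, with 17983 and 27385.

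None of the 9 regions over 10 kb overlapped a RefSeq promoter window. The widest, chr8:123537972-123624004, spans 86033 bases, 1.31 kb from Gas8, which encodes a subunit of the motile cilium. It lies over 48 ribosomal RNA genes and 3 pseudogenes, and 41 of the RNA genes carry the symbol of 5S ribosomal RNA, the small RNA of the large ribosomal subunit. These 41 genes are 121 bases long each at a median spacing of 1702 bases, which makes the region a tandem array of 5S genes by annotation. Its covered length was 81754 and 82411 bases in KO LPS, 84135 and 85576 in WT LPS, 72413 and 83869 in untreated KO libraries, and 78133 and 84988 in untreated WT libraries. LPS and untreated libraries overlapped.

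The next, chr9:3000030-3038287, is 38258 bases wide, begins at the first assembled bases of the chromosome and has no gene within 100 kb. Mouse chromosomes carry the centromere at this end. Each of the 8 lists called it as 1 unbroken peak, of 38254 and 38250 bases in KO LPS, 38258 and 38253 in WT LPS, 38240 and 38246 in untreated KO libraries, and 38256 and 38247 in untreated WT libraries. Such near-constant cover was also seen at chr7:64465788-64496217, 5.34 kb from Apba2, an adaptor protein of neurons, with 28535 to 30084 of 30430 bases. Another, chr8:20696333-20706891 beside the predicted gene Gm21119, had 10178 to 10517 of 10559 bases.

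The remaining 5 varied more between libraries. The region chrX:126749858-126778039, 28182 bases and 34 kb from 4932411N23Rik, had 27485 and 14290 covered bases in KO LPS, 20628 and 1868 in WT LPS, 26579 and 12059 in untreated KO libraries, and 21187 and 1774 in untreated WT libraries, with replicate 1 above replicate 2 in every group. A 15326-base region near Zmat1, also on X, had 12171 to 15263 covered bases. A 10053-base region inside Ulk4, which encodes a kinase-like protein, ranged from 1392 to 8153 bases and was lowest in untreated KO replicate 1. A 14194-base region near the start of chromosome 17, 82.5 kb from Scaf8, had 5969 to 8919 bases.

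**Figure D2:**
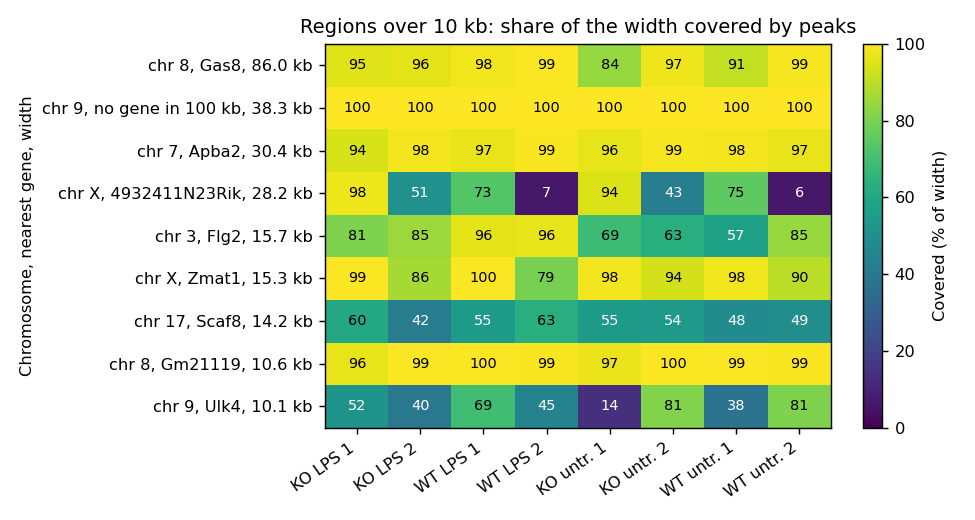
Share of the width covered by peaks (%, number in each cell) for the 9 regions over 10 kb, named by chromosome, nearest gene and width, in each library. The chromosome 9 region is covered in full in every library, and the X region near 4932411N23Rik is covered more in replicate 1 than in replicate 2 of each group.

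The ninth, chr3:93204000-93219684, lies inside Flg2, and it heads a set of regions in genes whose coding sequence is itself made of repeated units. Flg2, Flg and Hrnr encode filaggrin-family proteins of the outer skin, Ahnak2 encodes a very large scaffold protein and Eppk1 encodes epiplakin, which binds keratin filaments. None of these regions reached a gene end. Flg2 was covered over 12682 and 13310 bases in KO LPS and 15015 and 15100 in WT LPS, against 10762 and 9858 in untreated KO and 8920 and 13266 in untreated WT libraries. Only WT replicate 2 of the untreated libraries reached the LPS values.

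Hrnr (6941 bases wide) had 5999 and 4681 covered bases in KO LPS and 6335 and 4426 in WT LPS, against 4310 and 1629 in untreated KO and 600 and 3107 in untreated WT libraries. The groups did not overlap. Flg (9430 bases) had 1041 and 7547 in KO LPS and 4709 and 7201 in WT LPS, against 1146 and 813 in untreated KO and 1255 and 1411 in untreated WT libraries, so that 3 of 4 LPS libraries were above every untreated one. Eppk1 (3030 bases) had 2796 and 3025 in KO LPS and 2482 and 2888 in WT LPS, against 2258 and 2261 in untreated KO and 2255 and 2165 in untreated WT libraries, again without overlap. Ahnak2 (8306 bases) had 7907 and 7794 in KO LPS and 8304 and 7899 in WT LPS, against 5226 and 7983 in untreated KO and 3837 and 6354 in untreated WT libraries, which overlapped in KO. None of the 5 passed the test described below (adjusted p of limma 0.144 for Flg2, 0.201 for Hrnr, 0.153 for Flg, 0.0574 for Eppk1 and 0.206 for Ahnak2). With each library centred on its own median Eppk1 was called higher (limma adjusted p 0.0386) and the other 4 were not. Eppk1 was picked out here after its values were seen. A single peak of 2000 bases or more was in 3 lists at Flg, all with LPS. It was in 4 lists at Hrnr, 7 at Ahnak2 and 8 at Eppk1. The choice by width thus limits the contrast at Flg most, since its widest peaks were in the group where it was higher.

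Among the other regions of 5000 to 10000 bases, steady cover stood beside variable cover. A region inside Tmem267 had 6959 to 7253 of 7324 bases in all libraries, and 1 beside Gm21119 had 7423 to 7686 of 7693. A region over the pseudogene Cyp2c53-ps, 16.8 kb from Cyp2c29, a cytochrome P450 gene of the liver, ranged from 2381 to 7827 of 9549 bases. Those in a second stretch of Ulk4, in Gm29825, near Qrfprl and near Gm52481 on Y ranged from 2785 to 6019, 2942 to 7678, 1172 to 6220 and 2956 to 6841 bases.

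Wide regions collected at chromosome starts and on Y. Outside Y, 24 wide regions began before 3.5 Mb on 9 chromosomes, which was 5.78% of the 415 regions that begin there, against 0.455% of all regions. Of these 24, 21 were called in all 8 lists and 1 was near a gene end, at Samd9l. On Y 10 of 109 regions were wide, or 9.17%, on X 23 of 2605, or 0.883%, and on the autosomes the share ran from 0.292% on chromosome 2 to 0.563% on chromosome 6. Runs of 3 or more wide regions no farther than 50 kb apart held 30 of the 397, in 7 runs. They lay at the start of chromosomes 4, 11 (beside Sfi1) and 17, at Gm21119 on chromosome 8, near Mid1 and Erdr1 and farther along at the end of X, and at the end of Y. Mid1, Erdr1 and Asmt sit in or beside the pseudoautosomal region, the part of X that pairs with Y in male meiosis, and Sfi1 is known for excess reads on this build. Of 12 genes listed as known for such reads, 4 had wide regions assigned, 8 in all, none near a gene end.

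On X and Y, cover of the wide regions followed the replicate number. All 4 libraries of replicate 1 were above all 4 of replicate 2 in 6 of 23 wide regions of X (26.1%) and below in 2 (8.7%), against 2.38% and 0.653% of all regions on X. On Y none of the 10 was above and 7 (70%) were below, against 0.917% and 20.2% of all regions on Y. On the autosomes 4 of 364 (1.1%) were above and 6 (1.65%) below, against 0.647% and 0.588% of all regions there. Summed over the wide regions of Y, replicate 1 covered 16.1 kb in KO LPS, 12.5 in WT LPS, 12.1 in untreated KO and 11.2 in untreated WT, and replicate 2 covered 28.9, 32.7, 30.7 and 32.4 kb in the same order.

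The clearest were chrY:140580-145054 and chrY:259909-263642, called in all 4 lists of replicate 2 and in none of replicate 1. That pattern held for 0.504% of the wide regions, against 0.0814% of all regions. The first had 4459, 4466, 4475 and 4463 of 4475 bases in KO LPS, WT LPS, untreated KO and untreated WT libraries of replicate 2. The lists also held 33 to 43 peaks on Y in replicate 1 and 59 to 96 in replicate 2, and 1703 to 1763 on X in replicate 1 against 1497 to 1601 in replicate 2. The labels give no sex, and what the replicate number stands for was not tested. Each group has 1 library of each number, so the number is balanced over LPS and genotype.

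**Figure D3:**
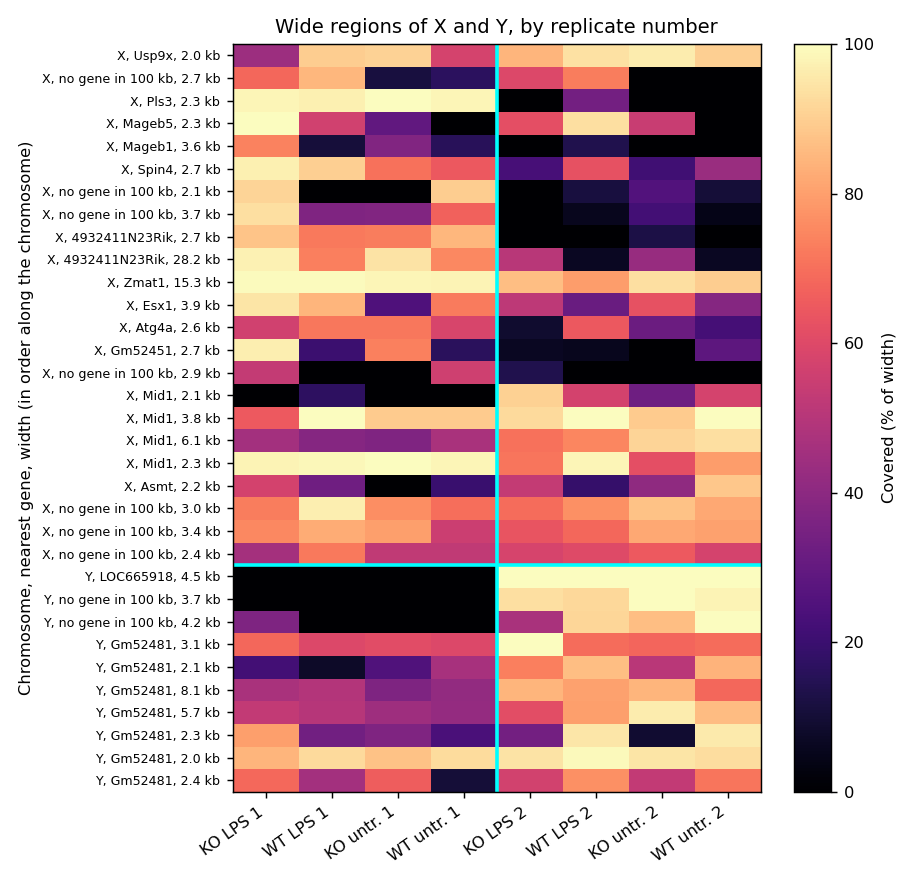
Share of the width covered by peaks (colour, %) in the 23 wide regions of X (above the horizontal line) and the 10 of Y (below it), in the 4 libraries of replicate 1 (left of the vertical line) and the 4 of replicate 2 (right). Both wide regions at the top of Y are dark in replicate 1 and near full cover in replicate 2.

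Genes of the macrophage and of LPS signalling had a small number of wide regions. Over all protein-coding genes, 336 of 21883, or 1.54%, had one assigned. Of 40 lineage transcription factors, 3 had a wide region assigned: Rel, an NF-κB subunit, Jun, a subunit of AP-1, and Klf6, whose region lay 56.6 kb away. Of 25 identity genes there were 2, Tlr4, the LPS receptor, and Ctsb, a lysosomal protease. Of 40 early LPS genes there were 2, Clec4e and Nfkbia, which encodes an inhibitor of NF-κB and lay 22 kb from its region. There was 1 of 21 late LPS genes (Vcan, a matrix proteoglycan), 1 of 31 interferon genes (Zbp1, a sensor of Z-form nucleic acid), 1 of 30 housekeeping genes (Ubb, ubiquitin), 0 of 45 ribosomal protein genes and 0 of the T cell, B cell, neutrophil, erythroid and fibroblast lists.

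Of 70 histone genes, 10 lay inside 4 wide regions on chromosomes 3 and 13. Each of these regions joined the ends of several small genes, as at H2ac21, H2ac20 and H2bc21. Transfer RNA genes were similar, with 15 genes in 5 wide regions that were all called in all 8 lists, such as chr2:122375457-122378734 with 3 histidine tRNA genes. Of the 111 wide regions with a promoter window, 79 held windows of 1 gene, 30 of 2 genes and 2 of 3 genes.

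Close to the threshold, Tlr4 was 2002 bases wide, Serpinb8, a serpin, 2001 and Clec4e 2000, and just outside stood H1f2, a linker histone, at 1999, Hivep1, a zinc finger protein, at 1998 and Gm5431 at 1998. Clec4e encodes Mincle, a macrophage receptor for mycobacterial glycolipid that LPS is known to induce. Its region had 1310 and 1206 covered bases in KO LPS and 1070 and 1924 in WT LPS libraries and was not called in any of the 4 untreated ones. The same pattern held for 2 other wide regions, 951 bases from Zc3h12c, an RNase of the regnase family, and over Snhg14, 43.9 kb from Ube3a, a ubiquitin ligase. Zc3h12c had 1756 and 859 bases in KO LPS and 1830 and 1114 in WT LPS. The reverse held for 1, 75.4 kb from Ppp2r5c, with 1179 and 1920 bases in untreated KO and 995 and 1724 in untreated WT libraries and no call with LPS. These 3 regions and 1 region are 0.756% and 0.252% of the wide regions, against 1.1% and 0.928% of all regions, so neither pattern was more frequent among them. None of the wide regions was called in all KO and no WT lists or the reverse, against 0.147% and 0.231% of all regions. With shares this small, 0 of 397 does not show an absence of genotype differences.

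A few wide regions were seen in few lists. chr7:59589252-59592096 was called in KO LPS replicate 2 alone, as 1 peak of 2845 bases. Of 2 regions near Dsg2, a desmosome gene on chromosome 18, 1 was called in both replicate 2 WT libraries alone. A region beside Cbwd1 and chrX:159134631-159137555 were each called in 3 lists.

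The first question of the design was what 2 h of LPS did to these regions, and values are given apart for those near and away from gene ends. Peaks covered 201.1 and 199.2 kb of the 128 regions near a gene end in KO LPS and 202.6 and 209.2 kb in WT LPS libraries, against 223.5 and 223.0 kb in untreated KO and 222.1 and 225.6 kb in untreated WT libraries. The means were 203 ± 4.37 kb with LPS and 224 ± 1.50 kb untreated (SD, n = 4 each), and the groups did not overlap. Cover of all regions was lower with LPS too, at 27.3 ± 0.770 Mb against 30.5 ± 0.703 Mb (SD, n = 4 each), also without overlap. As a share of all covered bases, the regions near a gene end differed by 0.0116 percentage points, so their drop was not particular to them. The 269 regions away from gene ends had 775.0 and 750.8 kb in KO LPS and 774.9 and 769.6 kb in WT LPS, against 700.0 and 759.9 kb in untreated KO and 688.0 and 769.0 kb in untreated WT libraries. The means were 768 ± 11.5 kb and 729 ± 41.1 kb (SD, n = 4 each), and the groups overlapped, since both untreated libraries of replicate 2 lay among the LPS values. In bulk nuclei, fewer open cells and a narrower opening in each cell cannot be told apart. The sequencing depth of the libraries is unknown, and its part in these differences was not tested.

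**Figure D4:**
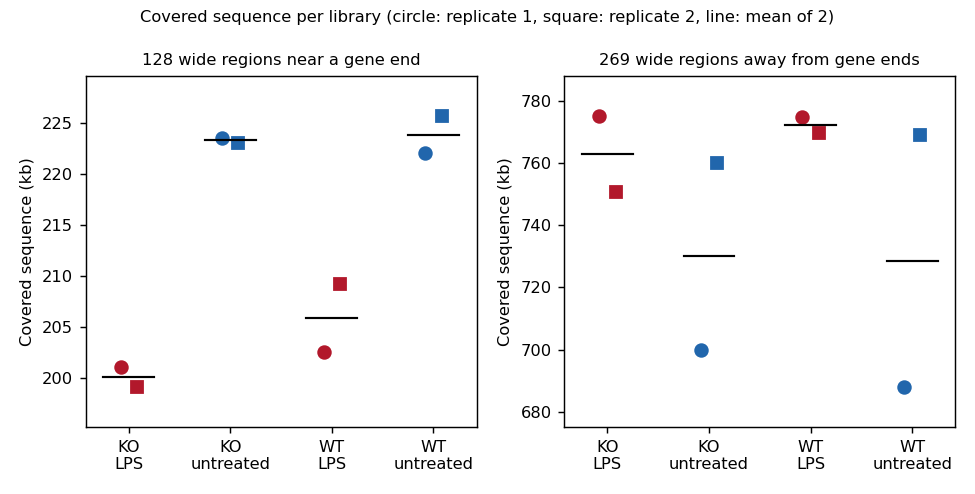
Covered sequence (kb) of the 128 wide regions near a gene end (left) and the 269 away from gene ends (right) in each library (circle replicate 1, square replicate 2, line the mean of 2; axes do not start at 0). Near gene ends every LPS library is below every untreated library, at 199.2 to 209.2 kb against 222.1 to 225.6 kb, and away from gene ends they overlap. Cover of all regions together, not drawn here, was lower with LPS too.

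All regions together were covered less with LPS, at 26.2 to 28.0 Mb against 29.6 to 31.2 Mb untreated. The wide regions therefore made up more of the covered bases with LPS, with 3.60% and 3.62% in KO LPS and 3.49% and 3.54% in WT LPS, against 3.12% and 3.23% in untreated KO and 2.92% and 3.22% in untreated WT libraries. The means were 3.56% ± 0.0586 and 3.12% ± 0.145 (SD, n = 4 each), without overlap. Wide regions called numbered 377 to 383 with LPS and 357 to 377 untreated. A called wide region held 1.50 to 1.59 separate peaks with LPS and 1.44 to 1.51 untreated, which overlapped.

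Region by region, limma was fitted to log2 covered bases of all 36009 regions called in all 8 lists, 316 of them wide, with Benjamini-Hochberg adjustment over all of them and a threshold of 0.05. With LPS, 14 of the 316 wide regions changed, or 4.43%, against 1.70% of all regions fitted. There were 4 higher (1.27%) and 10 lower (3.16%), against 0.444% and 1.25% of all regions. The wide regions were chosen by peak width in these same lists, so a region can pass the cut through the group with wider peaks. For that reason the larger shares are not read as a result about wide regions. Leaving out KO LPS replicate 1 or 2 left 9 or 4 wide regions called, and leaving out WT LPS replicate 1 or 2 left 1 or 2. Leaving out any 1 of the 4 untreated libraries left 0. The calls over all regions fitted fell too, from 611 to 268, 117, 33 and 167 in the same order. They were 0 without any 1 of the untreated libraries, so the fall was not particular to the wide regions. A fit that paired LPS and untreated libraries with the same code called 0 wide regions and 0 of all 36009. Over all regions the median log2 difference was -0.11. With each library centred on its own median the wide regions split into 7 higher and 3 lower, against 0.664% and 0.467% of all regions, and 7 of the 14 were called there.

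Values near gene ends were mostly negative. Of the 122 wide ones fitted, 100 had a negative and 22 a positive log2 difference, with a median of -0.16, against -0.09 for all 9888 regions near gene ends. Of the 194 away from gene ends 99 were negative and 95 positive, with a median of 0.00 against -0.12 for all 26121. For the 36 of 5000 bases or more the median was 0.03, with 22 positive. With centred libraries these 3 medians were -0.04, 0.12 and 0.16. All 4 LPS libraries lay below all 4 untreated ones in 20 of the 122 near gene ends (16.4%), against 8.46% of all regions near gene ends, and in 15 of the 194 away from them (7.73%), against 11.6%. They lay above in 2 of the 122 (1.64%), against 1.2%, and in 7 of the 194 (3.61%), against 3.13%. The choice by width from the same peaks limits these medians and shares as well.

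**Figure D5:**
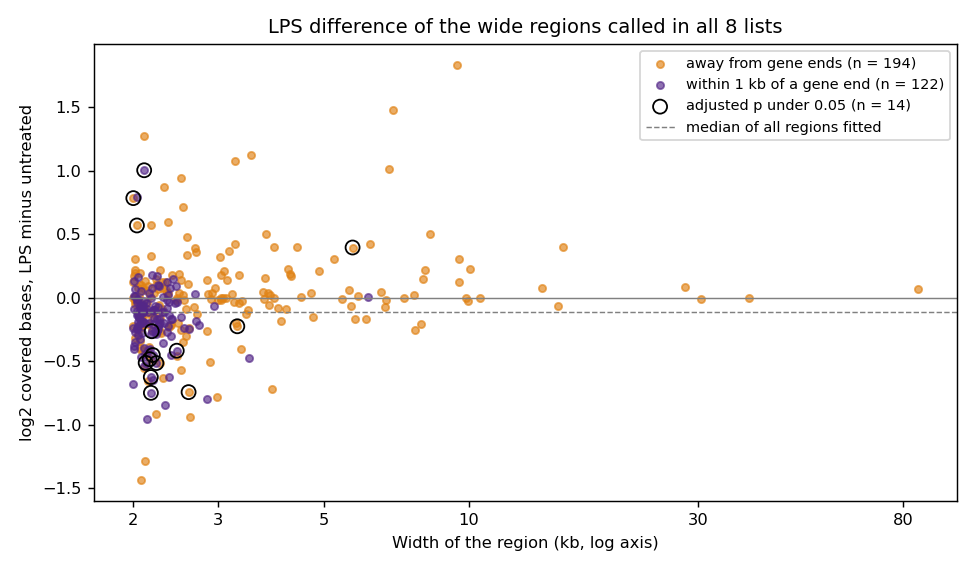
Difference in log2 covered bases, LPS minus untreated, of the 316 wide regions called in all 8 lists against their width (kb, log axis), coloured by distance to a gene end, with the 14 called regions circled and the median of all regions fitted as a dashed line at -0.11. Regions near a gene end gather below 3 kb and mostly below 0, and the 9 over 10 kb lie between -0.06 and 0.40, with Flg2 the highest.

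Of the 10 lower regions 7 were near a gene end, against 79 of the 451 lower calls over all regions. Among the 316 wide regions fitted, 122 were near a gene end. The smallest p was at Dock1, whose product activates the GTPase Rac in engulfment and migration and whose CpG-rich window is printed above. Its region, chr7:134669042-134671218, had 1267 and 1270 covered bases in KO LPS and 1403 and 1357 in WT LPS, against 2111 and 2135 in untreated KO and 1826 and 2105 in untreated WT libraries. The log2 difference was -0.62 (SE 0.0546, limma adjusted p 0.0220). The Rel promoter, chr11:23769690-23771867, had 1154 and 1434 in KO LPS and 1081 and 1232 in WT LPS, against 2050 and 1961 in untreated KO and 2110 and 2074 in untreated WT libraries, a difference of -0.75 (SE 0.0817, limma adjusted p 0.0257). All 4 LPS libraries were below all untreated ones at both.

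Ttc17, a tetratricopeptide-repeat protein, had 1795 and 1577 in KO LPS and 1388 and 1445 in WT LPS, against 1838 and 2020 in untreated KO and 2211 and 2201 in untreated WT libraries (log2 -0.42, SE 0.0582, limma adjusted p 0.0356). Hcls1, an actin regulator of blood cells, had 1043 and 941 in KO LPS and 1533 and 1391 in WT LPS, against 1721 and 1591 in untreated KO and 1945 and 1638 in untreated WT libraries (log2 -0.51, SE 0.0768, limma adjusted p 0.0410). These groups did not overlap at either gene. A region inside Lrrtm4, a synaptic adhesion gene, far from either end of it, had 735 and 570 in KO LPS and 644 and 695 in WT LPS, against 775 and 761 in untreated KO and 1547 and 1615 in untreated WT libraries (log2 -0.74, SE 0.0922, limma adjusted p 0.0289). The untreated WT libraries stood well above all others.

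The other 5 lower regions, named after their values were seen, were at Pik3r1, the regulatory subunit of PI3 kinase, Zbtb37 with Gas5, a noncoding RNA that hosts small nucleolar RNAs, Aftph, a protein of clathrin traffic, and farther from Sfi1 and Gm46353. Their log2 differences ran from -0.23 to -0.51 and their limma adjusted p from 0.0431 to 0.0486. None of these 5 was called with centred libraries, where Rel, Dock1 and Lrrtm4 were.

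The 4 higher regions were at Tmco6, Fgf12, Mob3b and Sik3, and all 4 were also called with centred libraries. Tmco6, on chromosome 18, was the 1 near a gene end, with 1923 and 1389 in KO LPS and 1626 and 2036 in WT LPS, against 961 and 773 in untreated KO and 799 and 923 in untreated WT libraries (log2 1.00, SE 0.141, limma adjusted p 0.0360). A region inside Fgf12, an intracellular member of the fibroblast growth factor family, had 1373 and 1908 in KO LPS and 1502 and 1755 in WT LPS, against 860 and 813 in untreated KO and 1039 and 1082 in untreated WT libraries (log2 0.78, SE 0.113, limma adjusted p 0.0377). A region 6.76 kb from Mob3b, of the MOB family of kinase activators, had 1834 and 1541 in KO LPS and 2003 and 1795 in WT LPS, against 1205 and 1254 in untreated KO and 1147 and 1212 in untreated WT libraries (log2 0.57, SE 0.0719, limma adjusted p 0.0292). None of these 3 overlapped between LPS and untreated.

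Sik3, a salt-inducible kinase, differed from these. Its region, chr9:46132630-46138353, is 5724 bases wide and lies inside the gene, away from its ends. It had 4691 and 4371 bases in KO LPS and 5463 and 4862 in WT LPS, against 2836 and 2643 in untreated KO and 4872 and 4989 in untreated WT libraries (log2 0.39, SE 0.0539, limma adjusted p 0.0340). The untreated KO libraries stood below all others, and WT libraries overlapped between LPS and untreated.

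The second question was whether loss of Nfat5 changed these regions. Covered sequence in all wide regions was 976 and 950 kb in KO LPS against 978 and 979 kb in WT LPS libraries, and 924 and 983 kb in untreated KO against 910 and 995 kb in untreated WT libraries. The means were 958 ± 27.1 kb in KO and 965 ± 37.6 kb in WT (SD, n = 4 each), which overlapped, as did the share of covered bases (3.39% ± 0.252 and 3.29% ± 0.285). With limma 0 of 316 wide regions were called between KO and WT, against 0.00555% of all regions fitted. KO libraries were all above WT in 5 (1.58%, against 1.08% of all regions) and all below in 10 (3.16%, against 2.97%).

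The 3 with the smallest p, none called, were Lemd3, Sik3 and Slc7a11. The promoter region of Lemd3, an inner nuclear membrane protein, had 1616 and 1658 bases in KO LPS against 2117 and 1972 in WT LPS, and 1543 and 1468 in untreated KO against 2342 and 2328 in untreated WT libraries. The log2 difference was -0.48 (SE 0.0425, limma adjusted p 0.0659), and all 4 KO libraries were below all WT ones. Sik3 had a difference of -0.52 (SE 0.0539, limma adjusted p 0.0919), again with all KO libraries below all WT ones. A region inside Slc7a11, the cystine transporter, had 1219 and 1244 in KO LPS against 2153 and 2627 in WT LPS, and 1313 and 1204 in untreated KO against 1383 and 1441 in untreated WT libraries (log2 -0.56, SE 0.0729, limma adjusted p 0.136).

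When regions missing from some lists were included, with 100 bases added to each value, 3 of 397 wide regions were called lower in KO by limma, against 0.144% of all regions: Lemd3, Sik3 and chr2:46343972-46346990, which has no gene within 100 kb. The last had 687 and 503 bases in KO LPS against 798 and 1362 in WT LPS, and was not called in untreated KO, against 1012 and 1798 bases in untreated WT libraries. All KO libraries were below all WT ones there too.

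The last question was whether the LPS difference itself differed between KO and WT. With limma 0 of 316 wide regions were called for this interaction, against 0% of all regions fitted. The smallest p was at Cdkn2c, an inhibitor of cell cycle kinases, with 1453 and 1510 bases in KO LPS against 2034 and 2024 in untreated KO libraries, and 2019 and 2050 in WT LPS against 1941 and 1985 in untreated WT libraries. The difference between the LPS effects was -0.51 (SE 0.0727, limma adjusted p 0.434). At Sik3 it was 0.66 (SE 0.108, limma adjusted p 0.451) and at Lrrtm4 0.99 (SE 0.184, limma adjusted p 0.451), from the values given above.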

How the data were processed

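ATAC-seq peak positions were deposited as 1 list per library, with chromosome, start and end on GRCm38 (mm10) and no score, count or signal. The tools were MACS2 2.1.1, Bowtie2 2.3.0, bcl2fastq 2.17.1.14 and Picard, per the submitters' processing notes. The handling of duplicate and multiply mapped reads bears on peaks over repeated sequence and was not given in the sources used here. A missing call does not show closed chromatin.

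Peaks were merged across lists, and covered bases were summed per region and library. Genes came from a RefSeq table (GRCm38.p6, 21883 protein-coding genes on the main chromosomes) without strand or exons, so either end of a gene counted as a gene end. A region's gene is the nearest within 100 kb. No genome was used, so repeat content was not measured. Starts count from 1. limma 3.58.1 (R 4.3.3, trend, 4 group means, 4 residual degrees of freedom) was tested on simulated data.

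The members and gene lists were chosen with earlier results of these data known. For that reason the exact permutation tests planned for sums over the members are not reported. Named regions were those over 10 kb, the 10 widest up to 10 kb with a gene, 3 on each side of the threshold, up to 4 per gene list, up to 5 per contrast and direction, and 5 in the fewest lists. Deviations of same-numbered libraries correlated at 0.0170 to 0.0544 over all regions, at 0.100 to 0.208 over the wide ones and at -0.0951 to 0.209 over the wide ones off X and Y. The labels do not say that a number or code marks 1 animal, so the fit without pairs was kept and the paired fit is given beside it. Alternatives changed the member width, the call, the merging, the list length, centring and the libraries included.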

Additional observations from a re-analysis of the deposited data

How the results depend on the processing

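Peak lists without scores or depth limit every result here: cover counts bases, not cutting, and a weak peak can drop out of a list. Of 152 alternatives to the untested library measures, 137 stayed within the spread between replicates, 13 of them with the opposite sign. Of these 13, 12 were KO minus WT values of cover (1.34 kb at the least, 7.71 kb without KO untreated replicate 1 and higher still without WT untreated replicate 2) or of regions called (0.25 to 4), and 1 was LPS minus untreated cover, -3.36 kb without WT untreated replicate 1. LPS minus untreated kept its sign in share of covered bases and regions called under all 19 alternatives to each. The alternatives counted include the replicate block, which cannot move a difference of means where each group has 1 library of each number. For cover the spread of 37.7 kb was larger than the main differences of 17.8 kb (LPS minus untreated) and -7.14 kb (KO minus WT). Staying within it therefore says little about cover. With members of 1500 bases or more, LPS minus untreated was -126 kb of cover, 0.663 percentage points of covered bases and 29 regions called, KO minus WT was -55.5 kb, and LPS changed 68 regions. At that width 49.3% of members were near a gene end and 89.4% were called in all 8 lists. With members of 3000 bases or more, LPS minus untreated was 0.301 percentage points, 3.25 regions and -0.0738 peaks per called region, KO minus WT was -0.0822 peaks per called region, LPS changed 2 regions, and 2.1% were near a gene end. When a call needed 50% of the region covered, KO minus WT was -8.75 regions and 49.9% of members were called in all 8. Splits chosen after seeing the data gave, near gene ends, LPS minus untreated differences of -20.5 kb, 0.0116 percentage points, 2.25 regions and 0.209 peaks per called region, and KO minus WT of 0.00997 peaks. Away from gene ends LPS minus untreated was -0.0151 peaks. Including regions called in at least 1 list gave 26 LPS calls, all 14 among them (3834 of 87260 regions in all), and 3 KO minus WT calls. Leaving out 1 library gave 0 to 9 LPS calls among the wide regions and 0 to 268 over all regions fitted. The replicate block, which for LPS pairs the LPS and untreated libraries that share a code, gave 0 LPS calls among the wide regions and 0 of 36009 in all. For KO minus WT the block paired libraries of the same treatment and replicate number. That fit called 0 wide regions, as without pairs, and 0 of 36009 regions in all, against 2 without pairs. The interaction had 0 calls with and without pairs. The labels do not say whether a shared code means a shared animal, so the blocked and unblocked counts are both given. Apart from the width, the call rule, the members summed and the libraries left out, the cause of these shifts was not tested.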
